A study of Mus musculus with 19 samples.

Results

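The nuclear genes of the mitochondrial respiratory chain and of ATP synthase were followed in whole mouse kidney after ischemia-reperfusion injury. They were taken from the deposited table of gene expression as every entry whose mouse symbol starts with Nduf, Uqcr, Atp5 or Cox4 to Cox8, or is Sdha, Sdhb, Sdhc, Sdhd or Cyc1, that reached 1 FPKM in 4 or more libraries. FPKM counts fragments relative to transcript length and to all mapped fragments of the library, so levels can be compared between genes per length. The rule found 92 genes, out of 13594 entries at the same minimum and 19287 entries in all. Of 94 rows with a matching symbol, 2 lay below the minimum, namely Cox6a2 and Ndufa11b. Complex I accounted for 46 genes, complex II for 4, complex III for 9, complex IV for 16 and ATP synthase for 17. Not all of them are subunits. The rule also takes in 8 complex I assembly factors (Ndufaf1 to Ndufaf8), 2 copies of Ndufb4, and 5 alternative isoforms or relatives of complex IV subunits (Cox4i2, Cox6b2, Cox7a1, Cox7a2l and Ndufa4l2), which leaves 77 subunit genes. A further 22 RefSeq genes with such symbols were not analysed here, of which 4 are protein coding (Cox7b2, Cox8b, Cox8c and Ndufb1) and the others pseudogenes. The 13 subunits encoded by mitochondrial DNA were not analysed here either.

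Complex I takes electrons from NADH and complex II takes them from succinate, as a step of the citrate cycle. Both pass them through coenzyme Q to complex III, which hands them by cytochrome c to complex IV, where oxygen is reduced to water. Complexes I, III and IV pump protons across the inner membrane, and ATP synthase lets the protons flow back to make ATP. The proximal tubule, which reabsorbs most of the filtered salt, glucose and amino acids, is packed with mitochondria and depends on this pathway, and it is the segment hit hardest by ischemia.

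The study asked how oral gavage with a Lactobacillus strain before the injury bears on the damaged kidney. All animals were male C57BL/6 mice, a strain whose Cox7a2l allele gives a shortened protein. The sham (n = 5) and IR (n = 5) groups are named by operation alone, without a gavage, and IR kidneys had ischemia-reperfusion. The IRLac (n = 5) and IRLacz (n = 4) groups had the injury after 4 weeks of gavage, and injured mice were killed on day 5 after it. The abbreviation Lacz stands for L. casei Zhang. IRLac was taken as the L. acidophilus arm because it is the only other strain the study names. Age, whether sham or IR mice received a vehicle, and whether each library came from a mouse of its own are not given in the labels, so p-values measure the spread between these libraries.

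The FPKM totals of the 19 libraries lay between 545590 and 584798, and sequencing depth is unknown, since the table holds no counts. Correlations of log2 values between libraries of a group were 0.978 to 0.995. The labelled tissue carried its defining markers, with Slc34a1, the phosphate transporter of the proximal tubule, at 2634 to 2997 FPKM in sham. A pair of injured libraries stood apart. The 92 genes together held 6.59% to 6.90% of all FPKM in sham and 4.35% to 5.16% in IR, but 6.51% in IRLac replicate 3 and 6.57% in IRLacz replicate 1. The other IRLac libraries held 4.34% to 5.20% and the other IRLacz libraries 4.56% to 5.57%. Havcr1, the injury marker KIM-1, was 211 and 138 FPKM in this pair, 305 to 739 in the other 12 injured libraries and 0.92 to 1.64 in sham. For the gavage groups, medians over the 92 genes are given with and without these libraries, an alternative chosen after seeing the data. Lists of other genes, markers, and most classes and single genes are given with all libraries only.

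**Figure D1:**
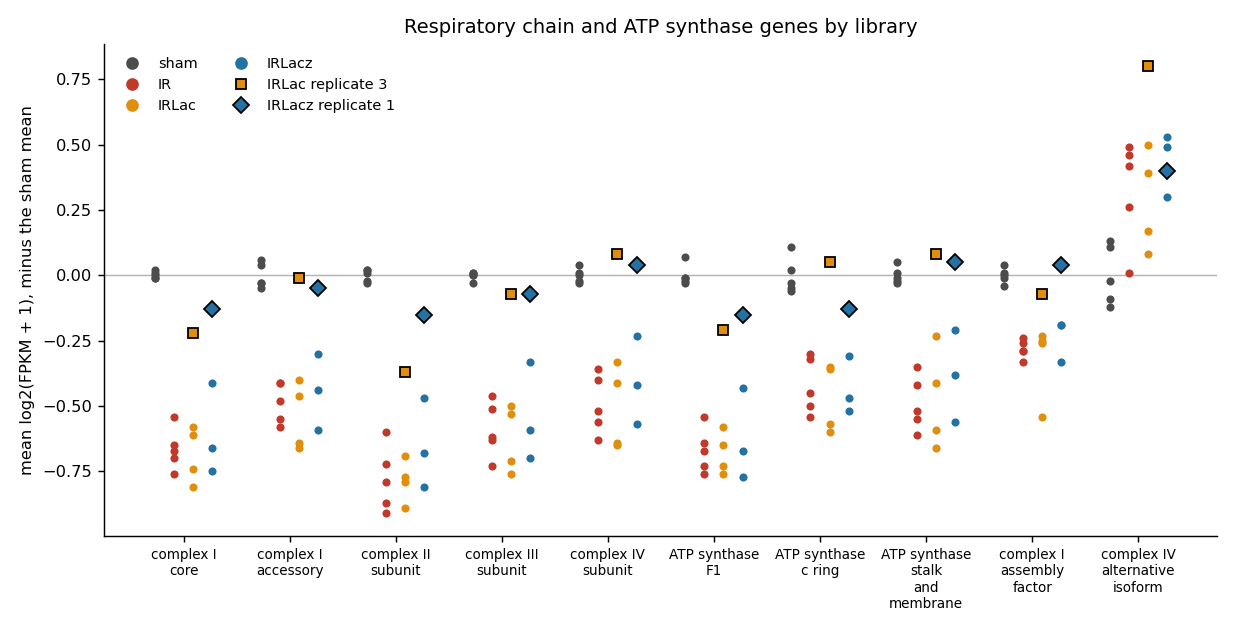
Mean log2(FPKM + 1) of each class of genes in every library, as the difference from the sham mean (vertical axis). Points are libraries, coloured by group. IRLac replicate 3 (square) and IRLacz replicate 1 (diamond) sit near sham in several classes. In complex II they lie 0.37 and 0.15 below it, in the complex I core 0.22 and 0.13 and in F1 0.21 and 0.15. In the complex IV alternative isoforms they lie 0.80 and 0.40 above it.

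In the IR kidneys nearly the whole pathway fell together. Of the 92 genes, 82 were lower than in sham, 3 were higher and 7 did not pass the test (limma on log2(FPKM + 1) across all tested entries, Benjamini-Hochberg adjusted p under 0.05). Among all 13594 tested entries, 18.6% were called lower and 57% higher. The 5 IR libraries lay wholly below the 5 sham libraries for 80 of the 92 genes, against 15.2% of all entries, and wholly above them for 3, against 48.6%. All 77 subunit genes had a negative difference, whereas 71.2% of all entries had a positive one. Of these, 74 passed the test, with a median of -0.53 over the 77 beside a median of 0.29 over all entries. The share of all FPKM held by the 92 genes was 6.68% ± 0.13 (SD, n = 5) in sham and 4.73% ± 0.32 (SD, n = 5) in IR. In bulk tissue, fewer cells of a type and less RNA per cell cannot be told apart. Near-identical copies and pseudogenes may have split reads in the authors' quantification, so levels of Ndufb4 and its copies, of the 3 genes of ATP synthase subunit c and of the small subunits with pseudogenes are uncertain.

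The size of the fall depended on how the libraries were put on a common scale, and its direction did not for the subunits. FPKM as deposited gave 2529 entries lower and 7747 higher in IR. After scaling by the median ratio of each library to all others the numbers were 4667 and 4890, and after quantile scaling they were 5200 and 4356, with the median of all entries at 0.02 and -0.05 in place of 0.29. Under those scalings 87 and 78 of the 92 genes were called lower and 2 and 3 higher, with medians of -0.81 and -0.48. No subunit gene had a positive difference under either.

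**Figure D2:**
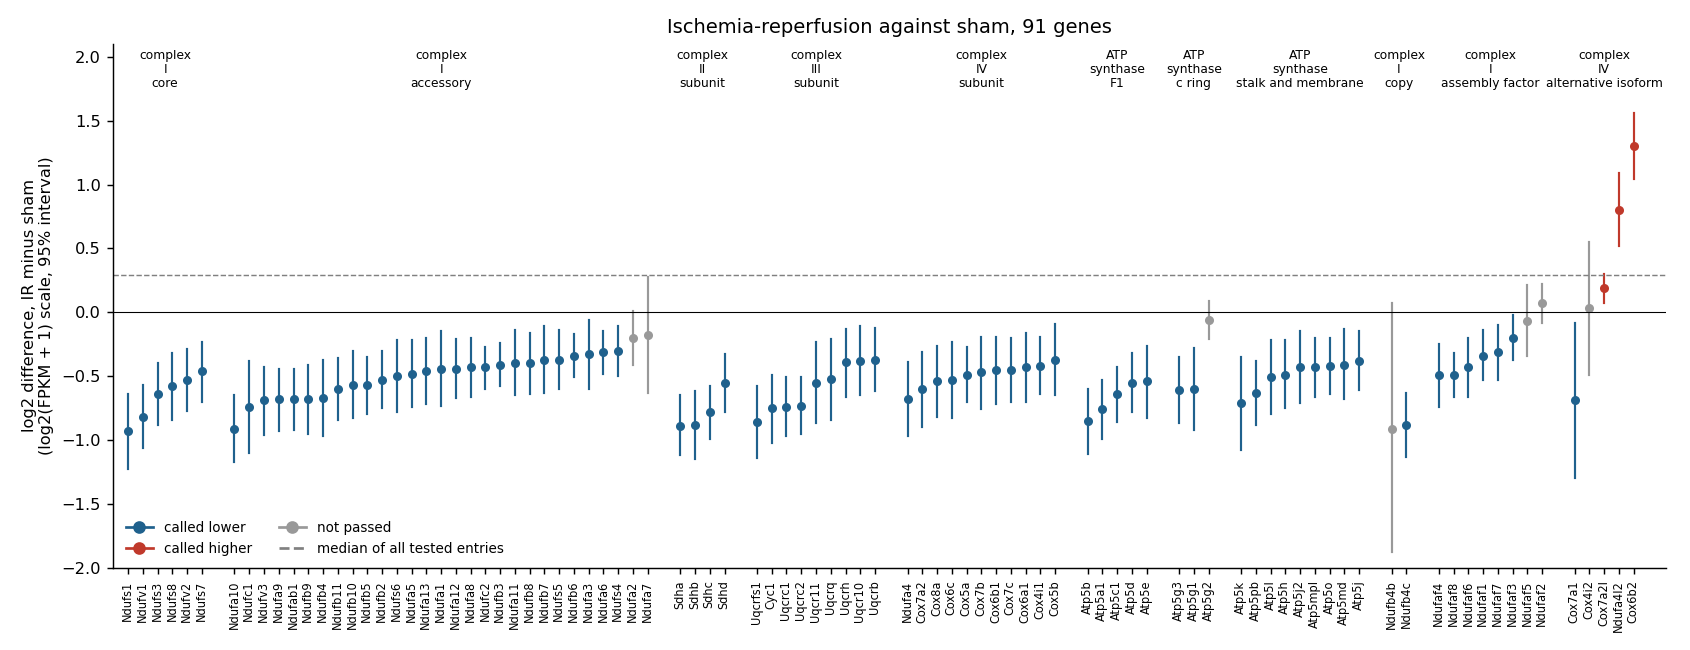
Log2 difference of IR from sham on the log2(FPKM + 1) scale with its 95% confidence interval (vertical axis) for 91 of the 92 genes (horizontal axis), grouped by complex. The differences of the 76 subunit genes shown run from -0.93 to -0.06, all below the dashed line at the median of all tested entries (0.29); Cox6b2, Ndufa4l2 and Cox7a2l lie above 0.

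The starts of some of these genes carry letters like those bound by NRF1, a transcription factor known to act on respiratory chain genes. RefSeq windows of 250 bases before the annotated start (build GRCm38.p6) were matched for 75 of the 92 genes. The NRF1-type motif (GCGC, any base, then TGCGC) was found on either strand in 14 of them (18.7%), in 8.75% of 10459 other tested genes and in 4.23% of all 27025 windows. Its palindromic form, with A as the free base and so a special case of the same motif, was in 5 windows (6.67%), against 1.73% and 0.877%. The ETS core CCGGAAG, known from GABP sites, was in 14 (18.7%, against 14.98% and 7.83%), the ERR core AAGGTCA in 5 (6.67%, against 3.68% and 4.70%) and the YY1-type motif AAGATGGC in 1 (1.33%, against 2.25% and 1.83%). A match is a description of the letters and not a measured binding site. Having a match to the NRF1-type motif did not go with a larger fall: the median difference of IR from sham was -0.49 for the 14 genes with it, 13 of them called lower, and -0.49 for the 61 without, 55 of them called lower. The windows below show members that fell as deposited (Sdha, Sdhd and Cox6a1), the c subunit gene that did not pass (Atp5g2) and a pair that rose (Cox6b2 and Cox7a2l). These labels depend on the scale: with median-ratio scaling Cox7a2l and Atp5g2 were called lower, at -0.13 and -0.39. With quantile scaling Cox6a1 did not pass. Capitals mark matches to the motifs above, with matches on the opposite strand shown as the reverse complement. All 6 genes lie on the minus strand and each window is written 5′ to 3′ towards the gene, ending at the base before the start.
Sdha, chr13:74350241-74350490: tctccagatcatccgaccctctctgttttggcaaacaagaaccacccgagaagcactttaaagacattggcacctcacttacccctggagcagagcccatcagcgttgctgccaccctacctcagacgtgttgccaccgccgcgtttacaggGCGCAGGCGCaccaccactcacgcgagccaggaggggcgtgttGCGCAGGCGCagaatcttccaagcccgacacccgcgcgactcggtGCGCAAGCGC
Sdhd, chr9:50603850-50604099: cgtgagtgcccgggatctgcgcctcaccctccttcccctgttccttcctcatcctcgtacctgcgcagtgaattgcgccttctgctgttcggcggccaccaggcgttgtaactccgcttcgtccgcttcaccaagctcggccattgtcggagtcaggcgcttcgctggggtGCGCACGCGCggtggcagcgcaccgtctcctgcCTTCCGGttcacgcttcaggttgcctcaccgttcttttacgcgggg
Cox6a1, chr5:115348959-115349208: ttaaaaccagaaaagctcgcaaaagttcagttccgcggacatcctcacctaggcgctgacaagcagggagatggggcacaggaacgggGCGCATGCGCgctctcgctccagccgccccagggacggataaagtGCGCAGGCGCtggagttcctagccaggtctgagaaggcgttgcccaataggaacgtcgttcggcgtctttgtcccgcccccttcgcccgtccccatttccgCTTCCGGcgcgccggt
Atp5g2, chr15:102671048-102671297: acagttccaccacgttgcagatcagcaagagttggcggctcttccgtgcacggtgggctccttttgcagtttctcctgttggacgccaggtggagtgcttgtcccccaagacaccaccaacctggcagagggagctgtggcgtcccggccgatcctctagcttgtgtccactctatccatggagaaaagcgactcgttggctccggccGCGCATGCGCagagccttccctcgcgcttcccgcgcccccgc
Cox6b2, chr7:4753095-4753344: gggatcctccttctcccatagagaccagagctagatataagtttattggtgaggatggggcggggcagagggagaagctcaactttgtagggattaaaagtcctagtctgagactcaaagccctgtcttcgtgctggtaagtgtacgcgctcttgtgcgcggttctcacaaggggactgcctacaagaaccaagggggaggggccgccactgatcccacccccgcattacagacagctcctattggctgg
Cox7a2l, chr17:83514334-83514583: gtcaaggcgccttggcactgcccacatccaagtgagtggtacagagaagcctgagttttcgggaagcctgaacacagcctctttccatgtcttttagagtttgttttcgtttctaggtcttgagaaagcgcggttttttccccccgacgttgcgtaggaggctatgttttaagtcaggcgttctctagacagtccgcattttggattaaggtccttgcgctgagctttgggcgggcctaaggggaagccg
Sdha held 3 matches to the NRF1-type motif, beginning 98, 55 and 10 bases before the start. Sdhd held 1 match to it at 79 bases and an ETS core at 46. Cox6a1 held 2, at 162 and 117 bases, with an ETS core at 16, and Atp5g2 held the palindromic form at 42 bases. In the Cox6b2 and Cox7a2l windows none of these letters was found.

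Complex I, the NADH dehydrogenase, fell in all 7 of its nuclear core subunits, which carry the flavin and the iron-sulfur clusters, with differences of -0.93 to -0.46 and a median of -0.64. Ndufs1, the largest core subunit, stood at 104, 103, 86.99, 102 and 108 FPKM in the sham libraries and at 43.9, 48.8, 49.4, 60.6 and 60.2 in IR. Every IR library was below every sham library. The means were 101 ± 8.06 and 52.6 ± 7.45 FPKM (SD, n = 5 each), a log2 difference of -0.93 (SE 0.14, adjusted p = 1.1e-05 by limma) and the largest fall of the 92 genes. Ndufv1, which binds NADH and the flavin, read 278, 274, 294, 276 and 269.8 FPKM in sham and 150.1, 151, 151, 159 and 177 in IR, again without overlap. Its log2 difference was -0.82 (SE 0.12, adjusted p = 5.2e-06 by limma). The smallest fall among the core subunits was that of Ndufs7, from 332 ± 17.7 to 241 ± 20.6 FPKM (SD, n = 5 each).

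The 29 accessory subunits surround the core and stabilise it. Of them 27 fell, with a median of -0.44, and Ndufa2 and Ndufa7 did not pass. Sham means ran from 14.2 FPKM for Ndufa7 to 527 for Ndufa3. Ndufa10, which fell most, went from 197, 187, 203, 203 and 199 FPKM in sham to 96.5, 106, 95.3, 109.7 and 118 in IR, with no overlap. That is a log2 difference of -0.91 (SE 0.13, adjusted p = 3.6e-06 by limma). Ndufa2 was 270.5 ± 8.01 FPKM in sham and 237 ± 27.8 in IR (SD, n = 5 each), with IR replicate 1 at 274 inside the sham range (limma adjusted p = 0.082, and 0.035 without that library). Ndufa7 was 14.2 ± 3.62 and 12.6 ± 4.27 FPKM (SD, n = 5 each, adjusted p = 0.47 by limma), far below its neighbours in the complex, and its groups overlapped widely. Ndufb4c, a copy of Ndufb4, fell from 215 ± 11.3 to 117 ± 13.7 FPKM (SD, n = 5 each), beside 314 ± 36.8 and 196 ± 12.3 for Ndufb4 itself. Ndufb4b, the other copy, was barely measured, at 3.09, 1.74, 5.93, 4.45 and 0 FPKM in sham and 0.73, 0, 0.64, 0.71 and 2.76 in IR (adjusted p = 0.083 by limma).

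Assembly factors put complex I together and are not part of the finished enzyme. Of the 8 in the set 6 fell, with a median of -0.33, and Ndufaf2 and Ndufaf5 did not pass. Ndufaf8 read 75.98, 70.99, 79.2, 75.7 and 66.3 FPKM in sham and 54.6, 53.8, 52.7, 44.9 and 54.8 in IR, a log2 difference of -0.49 (SE 0.08, adjusted p = 3e-05 by limma). Ndufaf4 fell equally, from 12.98 ± 1.39 to 8.9 ± 0.478 FPKM (SD, n = 5 each). Ndufaf2 was 27.6 ± 1.41 FPKM in sham and 29.04 ± 1.75 in IR (SD, n = 5 each), a log2 difference of 0.07 that turned to -0.25 (adjusted p = 0.014 by limma) with median-ratio scaling and to -0.13 with quantile scaling. Ndufaf5 was 7.95 ± 1.46 and 7.5 ± 1.03 FPKM (SD, n = 5 each, adjusted p = 0.66 by limma), and both of those scalings called it lower, at -0.36 and -0.46.

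Complex II, succinate dehydrogenase, is encoded by nuclear genes alone and had the lowest median of the subunit classes, -0.83 over its 4 subunits, all of which fell. Sdha, the flavoprotein that oxidises succinate, stood at 327, 326, 312, 307 and 337 FPKM in sham and 151, 171, 161, 191 and 199.6 in IR. No library of either group reached the other's range. The log2 difference was -0.89 (SE 0.11, adjusted p = 1.3e-06 by limma), a mean lower by 45.8%. Sdhb, the iron-sulfur subunit, went from 411 ± 18.8 to 223 ± 21.6 FPKM (SD, n = 5 each), and Sdhc, a membrane anchor that binds coenzyme Q, from 319 ± 7.78 to 185 ± 11.1. Sdhd, the other anchor, fell less, from 219 ± 8.37 to 149.7 ± 15.6 FPKM (SD, n = 5 each), a log2 difference of -0.55 (SE 0.11, adjusted p = 0.00015 by limma). The IR values of all 4 lay wholly below sham.

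In complex III, the cytochrome bc1 complex, all 9 nuclear subunits fell without overlap, with a median of -0.55. Uqcrfs1, the Rieske iron-sulfur protein, fell most, from 386, 375, 388, 380.1 and 371 FPKM in sham to 189, 207, 193, 220.3 and 239 in IR. Its log2 difference was -0.86 (SE 0.13, adjusted p = 1.5e-05 by limma). Cyc1, cytochrome c1, went from 432 ± 22.5 to 257 ± 23.1 FPKM, and the core proteins Uqcrc1 and Uqcrc2 from 369.9 ± 14.5 to 221 ± 12.1 and from 234 ± 9.32 to 141 ± 11.2 (SD, n = 5 each). The 5 small subunits had smaller differences, with Uqcr11 and Uqcrq at -0.55 and -0.52 and Uqcrh, Uqcr10 and Uqcrb at -0.39, -0.38 and -0.37.

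Complex IV, cytochrome c oxidase, fell in all 11 of its main nuclear subunits without overlap, over a narrow range of -0.68 to -0.37 and with a median of -0.47. Cox6a1 had the highest level of the 92 genes, 2159, 2175, 2314, 2241 and 2021 FPKM in sham and 1602, 1715, 1510.4, 1471 and 1797 in IR. Its log2 difference of -0.43 (SE 0.13, adjusted p = 0.0051 by limma) did not pass after quantile scaling (-0.22, adjusted p = 0.11 by limma). Cox4i1, which takes part in regulating the enzyme by ATP, read 1561, 1569, 1772, 1538 and 1555 FPKM in sham and 1214, 1239, 1108, 1139 and 1297 in IR. The gap between the highest IR and the lowest sham library was wide, and the log2 difference was -0.42 (SE 0.11, adjusted p = 0.0022 by limma). Ndufa4, named for complex I but known as a subunit of complex IV, fell most, from 977 ± 47.4 to 609.8 ± 48.7 FPKM (SD, n = 5 each), and Cox5b fell least, from 836 ± 42.6 to 649 ± 56.1. Cox5a, Cox6b1, Cox7a2 and Cox8a lay between them, at -0.49, -0.45, -0.60 and -0.54.

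ATP synthase has a catalytic head, F1, in which ATP is made, and a membrane part whose c ring turns as protons pass. All 5 F1 genes fell, with a median of -0.64. Atp5b, the catalytic beta subunit, went from 1859, 1899.7, 1967, 1815 and 1953 FPKM in sham to 906, 1018, 1002, 1156 and 1193 in IR. The groups were far apart, with a log2 difference of -0.85 (SE 0.12, adjusted p = 4.6e-06 by limma). Atp5a1, the alpha subunit, fell from 1060 ± 34.1 to 626 ± 57.7 FPKM, and Atp5c1, the gamma subunit that forms the rotating shaft, from 406 ± 14.2 to 260 ± 15.7 (SD, n = 5 each). The 9 genes of the stalks and the membrane part all fell, with a median of -0.43 and a range of -0.71 (Atp5k) to -0.38 (Atp5j). Atpif1, the inhibitor that blocks ATP hydrolysis by the enzyme, is not in the set by its symbol. It read 179, 178, 168, 196 and 178 FPKM in sham and 186, 184, 179, 167 and 187 in IR, and those ranges overlapped.

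The c ring is built from a protein that 3 genes encode in the same mature form. Atp5g1 and Atp5g3 fell, from 517 ± 32.8 to 342 ± 41.6 and from 1287 ± 56.7 to 844 ± 54.03 FPKM (SD, n = 5 each). Atp5g2 stood at 494, 472, 525, 518 and 455 FPKM in sham and at 514, 481, 469.9, 403 and 498 in IR, with overlapping groups and a log2 difference of -0.06 (95% interval -0.21 to 0.09, adjusted p = 0.45 by limma). With median-ratio scaling it was called lower, at -0.39 (adjusted p = 0.00018 by limma). Its share of the FPKM of the 3 genes was 21.45% ± 0.81 (SD, n = 5) in sham and 28.5% ± 2.24 in IR, and such a share does not depend on the scaling factor of a library.

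Of the alternative isoforms and relatives of complex IV subunits, 3 were higher in IR. Cox6b2, a form of subunit VIb known from testis, read 6.35, 5.82, 7.85, 7.97 and 8.6 FPKM in sham and 19.6, 22.4, 19.7, 14.8 and 20.9 in IR. All IR libraries were above all sham libraries. The log2 difference was 1.30 (SE 0.13, adjusted p = 5.7e-08 by limma) and it stayed at 1.01 and 0.92 under median-ratio and quantile scaling. Cox6b2 was still a minor form, at 0.846% ± 0.13 of the FPKM of Cox6b1 and Cox6b2 together in sham and 3.01% ± 0.36 in IR (SD, n = 5 each).

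Ndufa4l2, a relative of Ndufa4 known to be induced by hypoxia and to be expressed in pericytes, rose from 6.49, 6.32, 6.24, 6.56 and 4.65 to 13.5, 13.5, 9.84, 8.66 and 11.3 FPKM, with no overlap. The log2 difference was 0.80 (SE 0.14, adjusted p = 3.5e-05 by limma), and 0.51 and 0.40 under the other scalings. It made up 0.618% ± 0.091 of the FPKM of Ndufa4 and Ndufa4l2 in sham and 1.84% ± 0.35 in IR (SD, n = 5 each). The summed FPKM of 10 pericyte and smooth muscle markers was 81.9 to 98.3 in sham and 286 to 376 in IR, with none at 0 in every library. Of the 10, 7 were higher and 2 lower (Kcnj8 and Abcc9), where 57% and 18.6% of all tested entries were called. Under median-ratio and under quantile scaling 6 were higher and 2 lower. The part of these cells in the Ndufa4l2 difference was not tested.

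The full-length Cox7a2l protein joins complexes III and IV into supercomplexes, and this strain has the shortened form. Cox7a2l was 128, 138, 139, 127 and 133 FPKM in sham and 154, 164, 141, 146 and 156 in IR. Those ranges did not overlap, but the direction rested on the scale: the log2 difference was 0.19 (SE 0.06, adjusted p = 0.0044 by limma) as deposited, 0.29 with quantile scaling and -0.13 (adjusted p = 0.027 by limma) with median-ratio scaling. Its share of the FPKM of Cox7a1, Cox7a2 and Cox7a2l went from 25.05% ± 0.67 in sham to 36.9% ± 1.67 in IR (SD, n = 5 each).

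The forms known from heart and skeletal muscle did not follow that pattern. Cox7a1 read 44.7, 53.3, 59.2, 44.7 and 38.8 FPKM in sham and 27.8, 40.2, 18.3, 30.1 and 33.7 in IR, with IR replicate 2 above the lowest sham library. It was called lower, at -0.69 (SE 0.29, adjusted p = 0.038 by limma), and lost the call when any of 7 libraries was left out, with adjusted p up to 0.11. Its share of Cox7a1 and Cox7a2 was 12.1% ± 1.74 in sham and 11.3% ± 1.86 in IR (SD, n = 5 each). Cox6a2, below the minimum, was 0.79 to 1.98 FPKM in sham and 0.08 to 0.40 in IR. The 9 measured skeletal and heart muscle markers summed to 0.08 to 0.42 FPKM in sham, with 2 at 0 in every library. In IR they summed to 2.60 to 4.37, with 1 at 0. The 2 tested, Acta1 and Tnni2, had means of 0.02 and 0.066 FPKM in sham and 1.37 and 1.45 in IR. Both met the minimum only through injured libraries, so their call as higher is no separate support. The part of muscle cells was not tested. Cox4i2, known from lung and induced by hypoxia, was close to the detection limit, at 0.33, 1.75, 0.76, 0.56 and 0.66 FPKM in sham and 1.44, 0.55, 0.11, 1.33 and 0.9 in IR (adjusted p = 0.91 by limma).

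**Figure D3:**
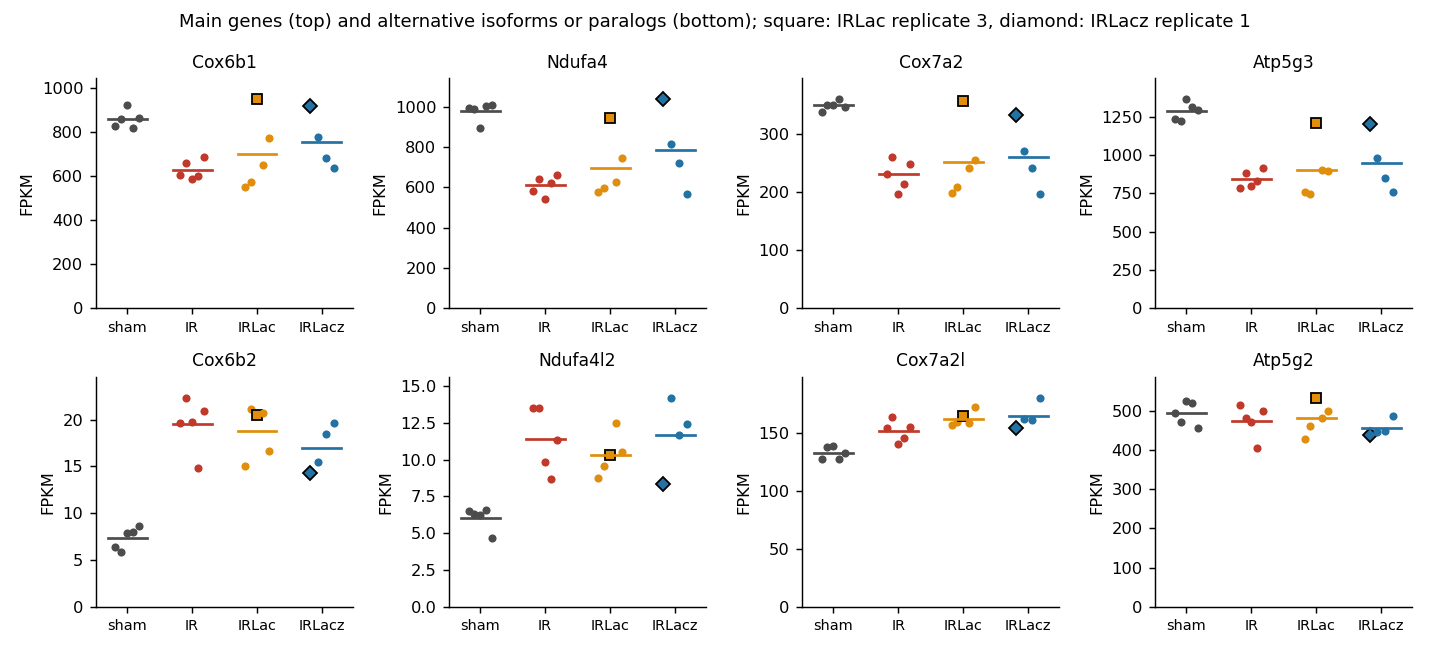
FPKM (vertical axis, from 0) of 4 main genes (upper row) and of an alternative isoform or paralog of each (lower row) in every library of the 4 groups; lines are group means. The IR means of Cox6b1, Ndufa4, Cox7a2 and Atp5g3 lie below sham, those of Cox6b2, Ndufa4l2 and Cox7a2l above it, and Atp5g2 overlaps.

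Among the 77 subunit genes the fall was larger for genes with a longer coding sequence, a property the choice of genes did not use. Coding lengths came from GENCODE M21. For the 26 shortest (156 to 333 bases) the median difference of IR from sham was -0.45, for the next 26 (336 to 525 bases) -0.45, and for the 25 longest (528 to 2181 bases) -0.68. All tested entries in the same 3 length ranges had medians of 0.19, 0.24 and 0.28. Across the 77 genes Spearman's rho between coding length and difference was -0.51 (Pearson's r = -0.59 with log2 length), against 0.04 across 13013 tested entries. These correlations are across genes that share the same 10 libraries, and the split was chosen after seeing the data. Within classes rho was -0.89 over the 7 core subunits of complex I, -0.42 over its 29 accessory subunits, -0.57 over the 9 subunits of complex III and -0.17 over the 9 stalk and membrane genes of ATP synthase, but 0.52 over the 11 of complex IV. The sham level of a subunit did not go with its difference (rho = 0.01).

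**Figure D4:**
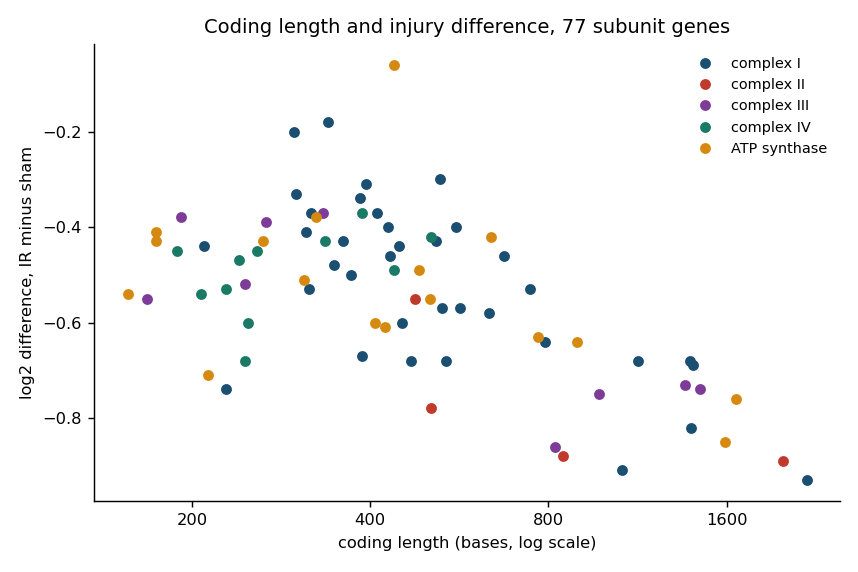
Coding length in bases (horizontal axis, log scale) and log2 difference of IR from sham (vertical axis) of the 77 subunit genes, coloured by complex. Genes of 528 bases or more have a median of -0.68 and run from -0.93 to -0.40. Shorter genes have a median of -0.45 in each of their length groups and run from -0.78 to -0.06.

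Genes that work beside the chain were taken from lists set for this pathway. Among 17 mobile carriers and enzymes that feed electrons in or make coenzyme Q, 14 fell and 1 rose, with a median of -0.55, beside -0.53 for the subunits. Under both median-ratio and quantile scaling 16 were lower and 0 higher. Gpd2, the glycerol 3-phosphate dehydrogenase that feeds coenzyme Q, fell from 11.8 ± 0.998 to 6.5 ± 0.669 FPKM (SD, n = 5 each). Coq9 of coenzyme Q synthesis fell from 132 ± 4.32 to 63.6 ± 9.3 FPKM and Etfa, which carries electrons from fatty acid oxidation, from 294 ± 16.2 to 154 ± 16.9 (SD, n = 5 each). Cycs, cytochrome c itself, fell from 138 ± 8.09 to 89.4 ± 4.33 FPKM, and Coq10b rose from 14.8 ± 1.99 to 20.1 ± 3.18, a rise (log2 difference 0.42) that median-ratio and quantile scaling left at 0.11 without a call. Of further assembly factors, 4 of 8 for complex I fell (median -0.39), 2 of 4 for complex II (-0.16), 2 of 6 for complex III (-0.08), 9 of 23 for complex IV (-0.15) and 3 of 3 for ATP synthase (-0.28). In the same order 0, 1, 1, 2 and 0 rose. With median-ratio scaling 8, 2, 5, 20 and 3 of these genes were lower and 0, 0, 1, 0 and 0 higher, with medians of -0.70 to -0.38, and with quantile scaling 7, 3, 4, 16 and 3 were lower and 0, 0, 1, 0 and 0 higher. Acad9, an assembly factor of complex I, fell from 30.1 ± 0.796 to 14.7 ± 0.964 FPKM, and Nubpl from 16.0 ± 1.99 to 9.36 ± 1.57, while Uqcc2 of complex III rose from 98.8 ± 7.63 to 146 ± 17.2 (SD, n = 5 each). The log2 differences were -0.46 for Uqcc1 of complex III, -0.70 for Cox15, which makes heme A for complex IV, and -0.59 for Taco1, a translational activator of a complex IV subunit. Those of Tmem70 and Atpaf2 for ATP synthase were -0.60 and -0.25. Sdhaf4 of complex II fell by 0.31, and Sdhaf2 was higher at 0.25 as deposited but at -0.05 and -0.10, without a call, under median-ratio and quantile scaling.

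Carriers that exchange ATP, ADP and phosphate across the mitochondrial membranes gave 3 of 6 lower and 1 higher as deposited, with a median of -0.20. With median-ratio scaling all 6 were lower (median -0.52), and with quantile scaling 3 were lower and 3 higher (median -0.15). Vdac1, the pore of the outer membrane, fell from 426 ± 9.25 to 290.1 ± 11.03 FPKM (SD, n = 5 each). The adenine nucleotide carrier Slc25a5 fell from 803 ± 13.1 to 496 ± 44.5 FPKM, whereas its relative Slc25a4 was 237 ± 10.8 in sham and 244 ± 17.9 in IR (SD, n = 5 each, adjusted p = 0.57 by limma). Slc25a4 changed direction with the scale, called lower at -0.28 with median-ratio and higher at 0.23 with quantile scaling. Of 16 genes of mitochondrial import, folding and shape, 10 fell and 2 rose as deposited (median -0.24), against 14 and 0 with median-ratio scaling (median -0.56) and 10 and 3 with quantile scaling (median -0.21). Among them were Immt of the cristae junctions and the fusion protein Mfn2 with log2 differences of -0.66 and -0.58, the chaperone Hspd1, which fell from 285 ± 24.4 to 163 ± 14.9 FPKM, and the import receptor Tomm22, which rose from 62.8 ± 3.49 to 80.8 ± 6.5 but not with median-ratio scaling (0.04, adjusted p = 0.60 by limma). The 15 regulators were mixed, with 8 lower and 4 higher and a median of -0.19, and with 11 lower and 3 higher under each of the other scalings. Ppargc1a, which encodes the coactivator PGC-1alpha, fell from 10.3 ± 1.12 to 5.87 ± 0.942 FPKM and Esrra, its partner ERRalpha, from 103 ± 3.9 to 75.2 ± 4.4 (SD, n = 5 each). Nrf1 rose from 6.21 ± 0.546 to 9.9 ± 0.625, Gabpb1 from 4.93 ± 0.26 to 8.47 ± 0.698 and Pprc1 from 3.09 ± 0.201 to 8.76 ± 0.989, and each was also called higher under both other scalings.

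Cell type markers moved with the injury too. Their counts stand beside 57% of all tested entries called higher and 18.6% called lower as deposited. All 13 proximal tubule markers were lower in IR (median -1.27), and without Kap, the most abundant of them, they summed to 7370 to 8328 FPKM in sham and 2676 to 4068 in IR. Markers of the distal convoluted tubule were lower in 4 of 4 (340 to 432 FPKM in sham, 66.4 to 250 in IR), of the thick limb in 4 of 6 (1802 to 2674 and 1031 to 1643) and of the collecting duct in 6 of 9 (478 to 629 and 366 to 809). All 8 injured tubule markers were higher (468 to 544 FPKM in sham, 8682 to 12040 in IR), as were 8 of 8 macrophage (83.8 to 115 and 1112 to 1587) and 8 of 8 fibroblast markers (64.1 to 93.1 and 713 to 888). Endothelial markers were split, with 4 of 7 higher and 3 lower (103 to 130 FPKM in sham, 123 to 141 in IR). The 4 higher are near the share of all entries, and they were 1 and 0 under median-ratio and quantile scaling. T and NK cell markers were higher in 5 of 6 (2.79 to 6.90 FPKM in sham, 9.0 to 23.8 in IR), and in 4 and 2 under median-ratio and quantile scaling. Red blood cell markers were lower in 4 of 4 tested (223 to 1352 FPKM in sham, 52.9 to 222 in IR). The 1 fat marker tested was not called. No marker of these lists other than fat was at 0 in every library of sham or IR. The part of these shifts in the fall of the respiratory chain genes was not tested.

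**Figure D5:**
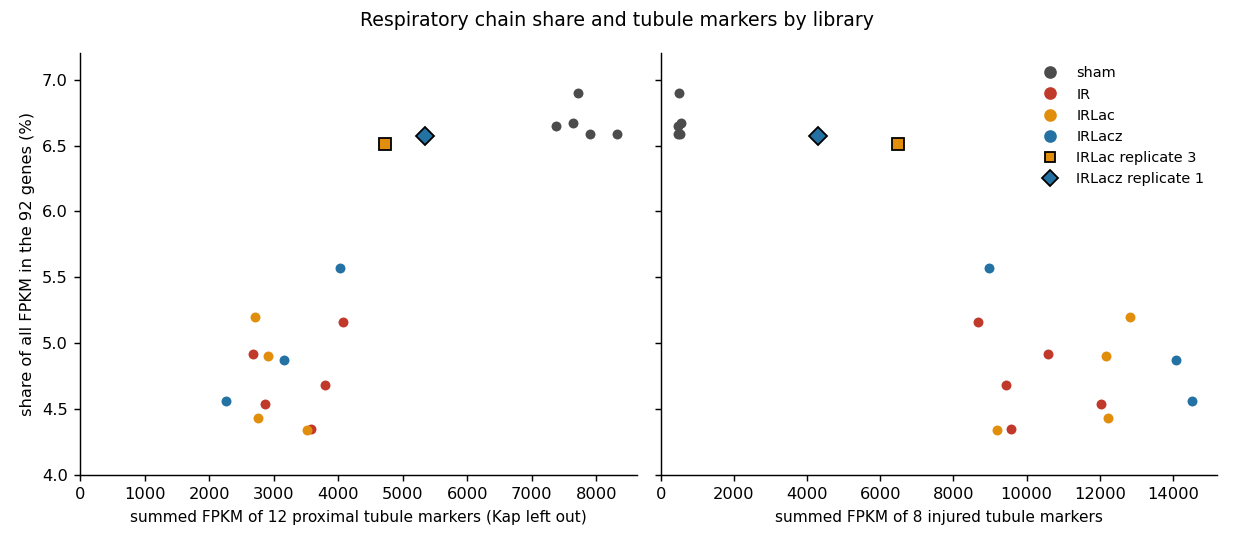
Share of all FPKM held by the 92 genes (vertical axis, %; it starts at 4) against the summed FPKM of 12 proximal tubule markers (left) and of 8 injured tubule markers (right) in each library. IRLac replicate 3 and IRLacz replicate 1 hold 6.51% and 6.57%, the sham level, with proximal tubule sums of 4722 and 5347 FPKM, between the other injured libraries and sham.

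The genes outside the set whose pattern was most like the mean of the subunits over the 19 libraries were Fxyd2 (Pearson's r = 0.992), Micos13 (0.981), Dusp15 (0.979), Mpc2 (0.977) and Inpp5j (0.970). Fxyd2, the gamma subunit that regulates the sodium pump, had means of 4584, 2786, 3029 and 3217 FPKM in sham, IR, IRLac and IRLacz. Mpc2, a subunit of the mitochondrial pyruvate carrier, had means of 451, 282, 298 and 323 FPKM. These likenesses are across libraries that share the injury contrast and are given as a description.

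After the L. casei Zhang gavage, none of the 92 genes was called different from IR, where 5.39% of all tested entries were called higher and 7.92% lower. At an unadjusted p under 0.05 there were 13 genes, all higher, against 30.7% of all entries in either direction. The difference was positive for 85 of 92 genes, with a median of 0.17, and for 49.1% of all entries. For no gene did the IRLacz libraries lie wholly above or wholly below those of IR, as they did for 5.33% and 6.85% of all entries. Much of this came from IRLacz replicate 1: without it the median was 0.07 and 72 of 92 were positive. Sdha had the smallest adjusted p, with 291, 229, 196 and 177 FPKM in IRLacz beside 151, 171, 161, 191 and 199.6 in IR. The highest value was that of replicate 1, and 2 of the 4 libraries lay inside the IR range. The log2 difference was 0.34 (95% interval 0.09 to 0.58, adjusted p = 0.067 by limma), and 0.20 with adjusted p = 0.15 without the pair of libraries that stood apart.

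Ndufs1 was 96.7, 71.8, 58.2 and 52.6 FPKM in IRLacz, a log2 difference from IR of 0.37 (95% interval 0.06 to 0.69, adjusted p = 0.1 by limma). The assembly factor Ndufaf7 was 14.9 ± 1.56 FPKM (SD, n = 4) in IRLacz and 12.01 ± 1.61 (SD, n = 5) in IR (adjusted p = 0.079 by limma). Ndufb4b, a copy at very low level, read 4.08, 4.79, 1.66 and 3.78 FPKM in IRLacz (adjusted p = 0.085 by limma). Uqcrc2 of complex III, Ndufa4 of complex IV and Atp5mpl of ATP synthase had log2 differences of 0.24, 0.34 and 0.27 with limma adjusted p = 0.15, 0.13 and 0.13. Atp5l, a membrane subunit of ATP synthase, differed by 0.30 (95% interval -0.01 to 0.61). Calls appeared when single libraries were left out. Leaving out IRLacz replicate 4, the lowest of its group for 72 of the 77 subunits, called 5 genes higher (Ndufa4, Sdha, Uqcrc2, Ndufa10 and Ndufs1), leaving out IR replicate 5 called Sdha and Ndufb4b, and leaving out IRLacz replicate 3 called Ndufb4c. With quantile scaling Sdha was called, and with libraries weighted by their quality Ndufa4, Sdha and Ndufa10.

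The isoforms that were higher in IR than in sham gave no call between IRLacz and IR. Cox6b2 was 14.3, 15.4, 18.5 and 19.7 FPKM in the IRLacz libraries, with a log2 difference from IR of -0.19 (95% interval -0.47 to 0.09). Ndufa4l2 was 8.34, 14.2, 11.7 and 12.4 FPKM, a difference of 0.03 (95% interval -0.27 to 0.33). Both genes were lowest in replicate 1.

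Among the regulators 4 of 15 were called higher in IRLacz and 1 lower, beside 5.39% and 7.92% of all tested entries. Ppargc1a was 12.7, 10.4, 9.17 and 9.7 FPKM in IRLacz and 5.38, 5.61, 4.7, 6.91 and 6.76 in IR. Every IRLacz library was above every IR library, with a log2 difference of 0.74 (SE 0.14, adjusted p = 0.0063 by limma). Esrrg, the orphan receptor ERRgamma, was 12.9 ± 0.513 FPKM (SD, n = 4) against 7.51 ± 1.43 (SD, n = 5), and Tfam, which packages and transcribes mitochondrial DNA, 18.6 ± 1.67 against 15.7 ± 0.94. Polg2, a subunit of the mitochondrial DNA polymerase, was also higher, and Pprc1 was lower, at 5.54 ± 1.18 FPKM against 8.76 ± 0.989 in IR. Esrra was 77.5 ± 13.5 FPKM in IRLacz and 75.2 ± 4.4 in IR (adjusted p = 0.87 by limma). As deposited, 1 gene each was called higher among the further assembly factors of complexes I, III and IV (Foxred1, Lyrm7 and Cmc1), the ATP carriers (Slc25a4) and the import list (Mfn1), and none was lower. Median-ratio scaling lost the calls of Foxred1, Slc25a4 and Tfam, and quantile scaling those of Foxred1 and Lyrm7. None of the carriers and feeders or of the assembly factors of complex II and ATP synthase was called as deposited, while quantile scaling called Coq9 and Coq10a of the carriers and feeders, and Surf1 of complex IV assembly, higher. Marker levels differed as well between these groups. Macrophage markers were lower in IRLacz for 5 of 8 (sums of 464 to 1057 FPKM, against 1112 to 1587 in IR), fibroblast markers for 5 of 8 (332 to 554 and 713 to 888) and pericyte and smooth muscle markers for 3 of 10 (160 to 219 and 286 to 376), and none of these sums overlapped. Collecting duct markers were higher for 4 of 9 (556 to 1078 and 366 to 809) and distal convoluted tubule markers for 1 of 4 (205 to 402 and 66.4 to 250). Injured tubule markers were lower for 1 of 8 (4291 to 14517 and 8682 to 12040). The 2 tested muscle markers were lower but near the detection limit, with means of 0.59 and 0.58 FPKM in IRLacz and 1.37 and 1.45 in IR. No marker of the proximal tubule (without Kap 2261 to 5347 and 2676 to 4068), thick limb (1799 to 2946 and 1031 to 1643), endothelium, T and NK cells, fat or red blood cells was called. The part of these cells in the differences was not tested. None of these regulators, other pathway genes or markers was called between IRLacz and IRLac, or between IRLac and IR. In those comparisons 0.0147% of all entries or fewer were called in each direction. Ppargc1a was 7.81 ± 1.89 FPKM and Esrrg 10.1 ± 2.54 in IRLac (SD, n = 5 each), between their means in IR and IRLacz.

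Between the IRLac and IR kidneys none of the 92 genes was called, where 0% of all tested entries were called higher and 0.00736% lower (1 entry). Only Atp5mpl, a small ATP synthase subunit, had an unadjusted p under 0.05, against 5.78% of all entries, with 382 ± 80.4 FPKM in IRLac and 317 ± 26.03 in IR (SD, n = 5 each, adjusted p = 0.83 by limma). The median difference was 0.07 with 84 of 92 positive (51.1% of all entries), and -0.03 with 30 of 92 positive once IRLac replicate 3 was left out. For Sdha the libraries read 171, 186, 228, 177 and 195 FPKM, with replicate 3 highest and the other 4 inside the IR range. The 95% interval of its difference from IR was -0.10 to 0.37.

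Set against each other, IRLacz and IRLac gave no call among the 92 genes, where 0.00736% of all entries were called higher and 0.0147% lower. At an unadjusted p under 0.05 there was 1 gene, Ndufb4b, against 16% of all entries. The median difference was 0.09 with 85 of 92 positive (48.2% of all entries), and it was 0.20 without IRLac replicate 3, -0.01 without IRLacz replicate 1 and 0.09 without both. Sdha differed by 0.20 (95% interval -0.05 to 0.45), Atp5pb, a stalk subunit of ATP synthase, by 0.13 (-0.13 to 0.40), and the assembly factors Ndufaf3 and Ndufaf6 by 0.18 (-0.00 to 0.36) and 0.21 (-0.04 to 0.45).

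In the pair of libraries that stood apart, the classes lay at different distances from sham. At or above the lowest sham library were 51 of the 77 subunit genes in IRLac replicate 3 and 46 in IRLacz replicate 1, against 1 to 5 in each of the other 12 injured libraries. Complex IV subunits averaged 0.08 and 0.04 above the sham mean on the log2 scale in this pair and the stalk and membrane genes of ATP synthase 0.08 and 0.05 above it. Complex II averaged -0.37 and -0.15, the complex I core -0.22 and -0.13, and F1 -0.21 and -0.15. Sdha read 228 and 291 FPKM in this pair, below the lowest sham library at 307, while Cox4i1 read 1774 and 1584, inside the sham range of 1538 to 1772 or just above it. Among the other libraries IRLacz replicate 2 came nearest, with 64 of 77 subunits above every IR library. In IRLac replicate 3 and IRLacz replicate 1 injured tubule markers summed to 6494 and 4291 FPKM, macrophage markers to 664 and 464 and proximal tubule markers without Kap to 4722 and 5347. The part of these markers' cells was not tested.

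Against sham, 53 of the 92 genes were called lower and 3 higher in IRLacz, where 13.5% and 56.9% of all tested entries were called, and 74 lower and 3 higher in IRLac, where 16.8% and 58% were. These comparisons share the sham libraries with that of IR, which called 82 and 3. The libraries lay wholly below sham for 33 genes in IRLacz (10% of all entries) and 29 in IRLac (11.8%), and wholly above for 3 in each (45.1% and 46.6%). The medians were -0.36 in IRLacz and -0.45 in IRLac beside -0.49 in IR. Without the pair of libraries that stood apart, 79 genes were lower in IRLacz (median -0.47) and 83 in IRLac (median -0.54), with 3 higher in each. Among all entries 2060 were then lower and 8050 higher in IRLacz, and 2426 and 8026 in IRLac. With IRLacz replicate 4 left out, IRLacz had 39 genes called in all. With median-ratio scaling 83 genes were lower and 2 higher in IRLacz (4128 and 4331 of all entries, 1834 and 7729 as deposited), and 85 and 2 in IRLac (4527 and 4665, against 2285 and 7885). With quantile scaling they were 44 and 3 in IRLacz (4158 and 3740 of all entries) and 70 and 3 in IRLac (4754 and 4321). All 4 subunits of complex II, all 7 core subunits of complex I and all 5 F1 subunits were lower in both groups.

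Sdhb had the largest fall in IRLacz, at 337, 279, 227 and 208 FPKM beside 409.6, 394, 443, 405 and 403 in sham, a log2 difference of -0.67 (SE 0.13, adjusted p = 0.00026 by limma), and -0.86 (SE 0.13, adjusted p = 7.4e-06 by limma) in IRLac. None of the 4 IRLacz libraries reached the sham range. Ndufs3, a core subunit of complex I, was 188 ± 5.65 FPKM in sham (SD, n = 5) and fell to 123 ± 29.7 in IRLacz (SD, n = 4). The assembly factor Ndufaf6 fell from 22.8 ± 1.78 FPKM to 16.7 ± 2.72 in IRLacz and 14.3 ± 2.41 in IRLac. With all libraries, 5 of the 11 complex IV subunits were lower than sham in IRLacz and 11 in IRLac. For the 9 stalk and membrane genes the counts were 2 and 7. Such class counts are not given without the pair of libraries that stood apart. Over all subunit genes, 49 were lower in IRLacz and 68 in IRLac with all libraries, and 73 and 75 without that pair. No gene of these classes was called between IRLacz and IRLac. Cox4i1 was 1584, 1356, 1277 and 1215 FPKM in IRLacz, where replicate 1 lay inside the sham range (adjusted p = 0.07 by limma), and 1160.2, 1095, 1774, 1319 and 1254 in IRLac, where replicate 3 lay above it (adjusted p = 0.02 by limma).

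The 3 genes that were higher than sham in IR were higher in both gavage groups as well. Cox6b2 differed from sham by 1.25 in IRLac and 1.11 in IRLacz, with limma adjusted p = 1.1e-07 and 1.7e-06. Ndufa4l2 differed by 0.69 and 0.83. Both stayed higher under median-ratio and quantile scaling. Cox7a2l differed by 0.29 and 0.30 as deposited and by 0.40 and 0.44 with quantile scaling, but by -0.05 and -0.02 with median-ratio scaling, where it did not pass.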

How the data were processed

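Whole kidneys were profiled by RNA-seq of total RNA in 19 libraries. Expression per gene was deposited by the authors as FPKM in 1 table. HISAT, StringTie 1.0.4 and the build mm9 are named, without their roles, in the submitters' processing notes, and the sources used here do not give depth, annotation or strand handling. Groups came from the sample titles. Entries that reached 1 FPKM in 4 or more libraries entered the test, on log2(FPKM + 1), so folds of low genes are understated. The test was limma 3.58.1 with a trended prior in R 4.3.3, with 19 libraries and 15 residual degrees of freedom in 1 model, and Benjamini-Hochberg adjustment over all 13594 entries at 0.05. The fit was tested on simulated data. Tables were made with python 3.11.15 and pandas 2.3.3. Members and lists were chosen with earlier results of these data known, and the pathway and marker lists are those whose counts are reported. Genes were named by rule: a set chosen by role, the smallest adjusted p and largest called change of each complex and comparison, every gene called against the main direction or not passing in IR, and the 2 smallest adjusted p of each pathway list. Other genes named, among them Atp5c1, Atp5j, Atp5k, Ndufa3, Ndufs7, Uqcr10, Cycs, Etfa, Coq10b, Hspd1, Tomm22, Slc25a4, Esrra, Nrf1 and Tfam, were chosen after their values were seen. Alternatives changed the pseudocount, filter, scaling, samples in the fit, library weights and replicate block, and left out each library in turn. Promoter windows are from RefSeq (GRCm38.p6), a build other than that of the files, and were used by symbol. The values of 1 gene are not reported here, although it enters the counts.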

Additional observations from a re-analysis of the deposited data

Results flagged for a closer look

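Single libraries lay far from the rest of their group for 17 of 188 combinations of a gene, or the summed share, with a group, where chance flags about 1 in 20. The combinations share libraries and are not independent, so these numbers do not show whether there were more than by chance. IRLac replicate 3 accounted for 6, with Atp5a1 at 864 FPKM beside 613 to 674 in the other IRLac libraries, Cyc1 at 367, Ndufv1 at 228, Sdhc at 242, Uqcrc1 at 292 and Cox4i2 at 2.55. Sham replicate 3 accounted for 6, with the share of all FPKM at 6.90%, Atp5g1 at 576, Cox4i1 at 1772, Cyc1 at 471 and Uqcrc1 at 395 FPKM on the high side and Ndufa4 at 894 on the low side. The other 5 were Ndufa4l2 at 4.65 FPKM in sham replicate 5, Ndufaf5 at 5.37 in IRLac replicate 1, Ndufaf8 at 44.9 in IR replicate 4, Ndufb4b at 2.76 in IR replicate 5 and Uqcrb at 233 in IR replicate 3.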

How the results depend on the processing

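The fall of the 92 genes in IR passed in 82 to 86 genes in all, both directions together, when single libraries were left out. Between IRLacz and IR the count was 0 as deposited, 2 with quantile scaling, 3 with library weights and 0 to 5 with single libraries left out, while IRLac against IR and IRLacz against IRLac stayed at 0 in each of those. IRLacz against sham had 56 calls, 85 with median-ratio scaling and 39 to 75 with single libraries left out, and IRLac against sham 66 to 85. Directions changed for Cox4i2 in IR (-0.04 with a pseudocount of 0.1, -0.11 median-ratio, -0.39 quantile, -0.05 library weights, and -0.08 to 0.20 without single libraries), Cox7a2l (-0.13 median-ratio), Ndufaf2 (-0.25 median-ratio, -0.13 quantile) and Ndufaf5 (-0.17 to 0.00 without single libraries). Sdhb in IRLac against IR turned to -0.02 with library weights, -0.09 to 0.09 without single libraries and -0.09 without both libraries that stood apart. The cause was not tested. Depth is unknown, so the precision of low values cannot be given.

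Libraries with the same replicate number did not deviate together: 6 of 27 same-numbered pairs had a correlation over 0.1 (r from -0.394 to 0.23), and 3 of 19 libraries matched their own number best. With the replicate block the calls were 80 lower and 3 higher (83) in IR against sham, 46 and 3 (49) in IRLacz against sham, 73 and 3 (76) in IRLac against sham and 0 in IRLacz against IR.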
